A study of Mus musculus with 4 samples.

Results

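The cathepsins examined here were *Ctsb*, *Ctsc*, *Ctsd*, *Ctse*, *Ctsh*, *Ctsk*, *Ctsl*, *Ctss*, *Ctsw* and *Ctsz*, 10 of the 25239 gene symbols counted in each library. They were taken by name as a gene family, with earlier results of these data known. All 10 passed the filter on low counts that left 13919 genes for testing. The question put to them was how the lymphoid member *Ctsw* stood against the members known from myeloid and stromal cells. The 4 RNA-Seq libraries were labelled as CD4+ T cells infiltrating lung tumors of C57BL/6 mice, 2 from WT mice and 2 from CD4CreERT2+/-/Acvr1bfl/fl mice (CD4/ALK4-KO), with biological replicates in each genotype. In the latter mice, tamoxifen (5 doses of 75 mg/kg) activates a Cre recombinase driven by the mouse *Cd4* promoter, which deletes the floxed *Acvr1b* gene encoding ALK4, the type I receptor of activin-A. Both genotypes received 500000 LLC-OVA cells intravenously, a Lewis lung carcinoma line expressing ovalbumin, and the methods give male mice of 8 to 10 weeks. Tumors were excised after 18 to 22 days by the sample labels and after 16 to 20 days by the methods for these mice. Whether the WT mice received tamoxifen, and whether a library pools animals, is not given in the sources used here. T cells were purified with a kit from leukocytes collected on a density gradient, and no sorting step was described.

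Cathepsins are proteases of endosomes and lysosomes that are made as inactive precursors, sorted by mannose 6-phosphate receptors and activated by cleavage in the acid lumen. Most are cysteine proteases of the papain family, whereas cathepsins D and E are aspartic proteases. In macrophages and dendritic cells they degrade engulfed protein and trim the invariant chain from MHC class II, in fibroblasts and tumors they turn over matrix, and in cytotoxic lymphocytes they activate or accompany the granule proteases. Cystatins, stefins and some serpins inhibit the cysteine members.

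The total counts ran from 11823908 to 13943237, and the 10 cathepsins together took 0.929% and 0.932% of them in WT-labelled libraries and 0.763% and 0.802% in CD4/ALK4-KO-labelled libraries. The targeted gene *Acvr1b* had 426 and 342 counts in WT-labelled libraries and 322 and 445 in CD4/ALK4-KO-labelled libraries, so that it did not separate the labels (log2 fold change 0.16, standard error 0.24, adjusted p = 0.66). Which exons are floxed is not given in the sources used here, and directions are therefore stated between the libraries as labelled. T cell markers were detected in all 4 libraries, but their summed level was 607 and 547 CPM (the count scaled to the TMM-adjusted library size) in WT-labelled libraries against 3089 and 3063 CPM in CD4/ALK4-KO-labelled libraries, and 16 of 16 passed the test as higher. The libraries also held genes of other cells: 12 of 12 macrophage markers and 7 of 8 fibroblast markers exceeded 10 CPM in every library. The macrophage markers summed to 3097 and 2652 CPM (WT) and 2745 and 2945 CPM (CD4/ALK4-KO), with 1 of 12 called higher, *Csf1r*, and none lower, whereas the fibroblast markers summed to 6726 and 7335 CPM against 4791 and 3974 CPM, with 4 of 8 called lower. In such bulk samples, fewer cells of a type and less RNA per cell cannot be told apart.

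Of the 10 cathepsins, 1 rose and 1 fell. *Ctsw* was higher in CD4/ALK4-KO-labelled libraries and *Ctsl* was lower, at an adjusted p under 0.05 in edgeR's quasi-likelihood test over all 13919 genes. Over all genes tested, 17.4% were called higher and 15.4% lower, so the shares of the family, 1 of 10 in each direction, were not above the background. The 2 libraries of each genotype did not overlap for 3 members that were higher (*Ctsc*, *Ctsh* and *Ctsw*), against 32.7% of all genes, and for 2 that were lower (*Ctsb* and *Ctsl*), against 34% of all genes. The median log2 fold change of the 9 members other than *Ctsw* was 0.041, close to the -0.0082 of all genes tested.

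**Figure D1:**
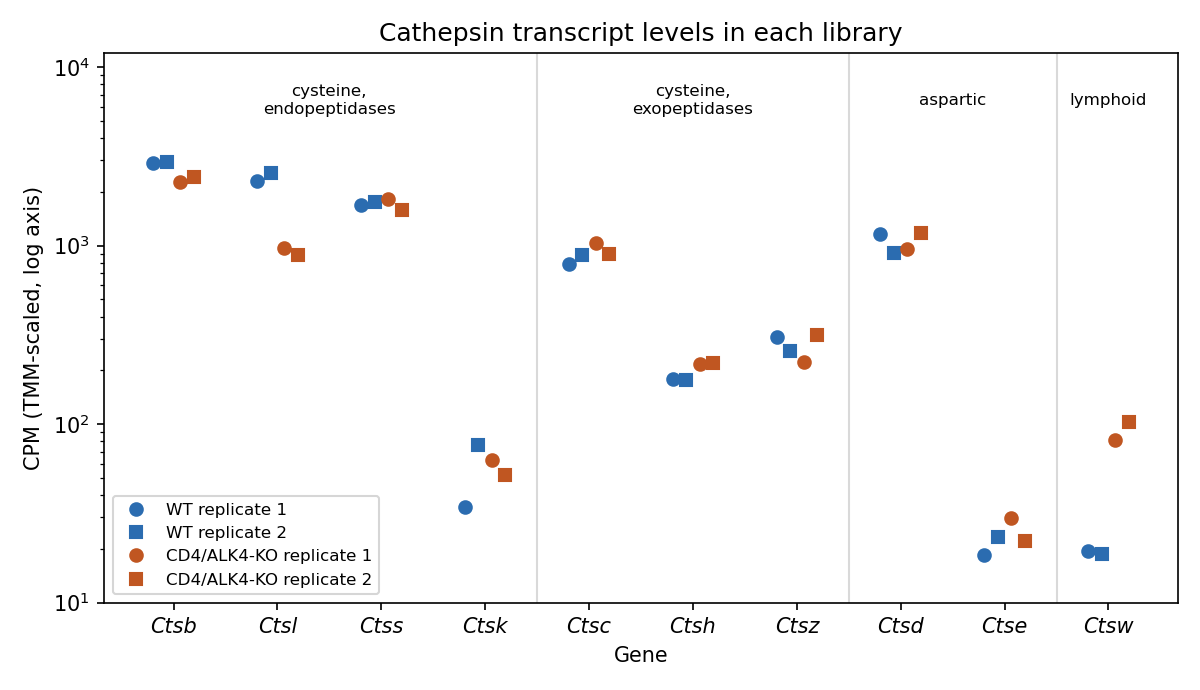
Level of each of the 10 cathepsins, in TMM-scaled CPM on a log axis, with one point per library (blue, labelled WT; orange, labelled CD4/ALK4-KO; circle, replicate 1; square, replicate 2) and genes ordered by protease class. *Ctsw* rises from 19.5 and 18.7 CPM to 81.2 and 103 CPM, and *Ctsl* drops from 2307 and 2546 CPM to 972 and 891 CPM, while the points of *Ctss*, *Ctsd*, *Ctsz*, *Ctsk* and *Ctse* overlap between the labels.

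*Ctsw* encodes cathepsin W, a papain-family protease found chiefly in NK cells and cytotoxic T cells. The gene lies on the minus strand of chromosome 19 (5465043 to 5468507, GRCm38), and its end overlaps *Fibp* on the other strand, so reads in the overlap could belong to either gene. It had 267 and 253 counts in WT-labelled libraries and 967 and 1276 in CD4/ALK4-KO-labelled libraries. The replicates lay close together in the first pair, and every CD4/ALK4-KO library was above both WT libraries. Its level was 19.1 ± 0.552 CPM (SD, n = 2) against 92.3 ± 15.6 CPM (n = 2), a 4.83-fold rise (log2 fold change 2.27, standard error 0.23, adjusted p = 1.8e-07). With any one library removed, the log2 fold change stayed between 2.08 and 2.47.

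The T cell, cytotoxic and B cell markers rose along with *Ctsw*. *Ctsw* amounted to 3.21% and 3.42% of the summed CPM of the 16 T cell markers in WT-labelled libraries and to 2.63% and 3.37% in CD4/ALK4-KO-labelled libraries, and these pairs overlapped. The cytotoxic and NK cell markers rose from 245 and 320 CPM to 1055 and 972 CPM, with 12 of 12 called higher. Against their sum, *Ctsw* stood at 7.95% and 5.84% (WT) and 7.70% and 10.6% (CD4/ALK4-KO), again with overlap. When 4 T cell receptor complex genes set the scale of the libraries (*Cd3d*, *Cd3e*, *Cd3g* and *Cd247*) in place of TMM, *Ctsw* no longer passed the test (log2 fold change -0.073, standard error 0.26, adjusted p = 0.79). That scaling shifted all genes by a median of -2.35, so that smaller rises are negative on it, such as that of the NK granule gene *Nkg7* (1.73 by TMM, -0.62 by this scale). Scaling to the macrophage markers instead left *Ctsw* at 2.32. The B cell markers, a class not known for *Ctsw*, also rose, from 84.4 and 72.3 CPM to 259 and 508 CPM with 10 of 10 called higher. *Ctsw* was not set against their sum, so the ratios above do not set T cell or cytotoxic markers apart from them. The part of each cell type in the *Ctsw* counts was not tested.

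**Figure D2:**
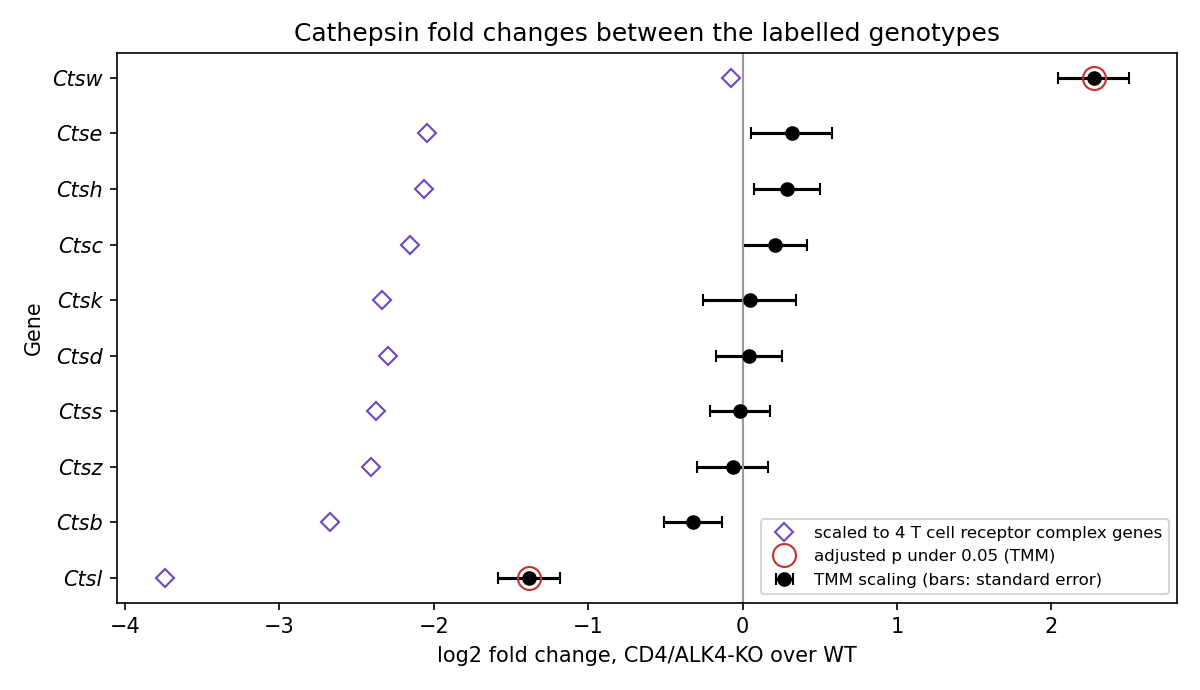
Log2 fold change of each cathepsin, CD4/ALK4-KO-labelled over WT-labelled libraries; black points give TMM scaling with bars of 1 standard error, red rings mark an adjusted p under 0.05, and open diamonds give the value after scaling to 4 T cell receptor complex genes. *Ctsw* at 2.27 and *Ctsl* at -1.38 carry the rings; the T cell receptor scale moves *Ctsw* to -0.073 and *Ctsl* to -3.74.

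Of the cysteine endopeptidases, *Ctsl* fell and *Ctsb*, *Ctss* and *Ctsk* did not pass the test. *Ctsl* encodes cathepsin L, a broadly expressed lysosomal protease that trims the invariant chain in thymic epithelium. The gene lies on the minus strand of chromosome 13 (64359337 to 64370890) and overlaps an antisense transcript (Gm47123) and a processed pseudogene (Gm49230), with which it could share reads. It had 31610 and 34446 counts in WT-labelled libraries and 11564 and 11005 in CD4/ALK4-KO-labelled libraries, with a wide gap between the pairs. Its level fell from 2427 ± 170 CPM (n = 2) to 931 ± 56.7 CPM (n = 2), 2.61-fold (log2 fold change -1.38, standard error 0.20, adjusted p = 1.5e-05). It was called lower under all 13 alternatives tried, with log2 fold changes from -3.74 on the T cell receptor scale to -1.32.

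*Ctsl* was also lower relative to the summed CPM of 4 marker lists, sums in which the most abundant genes weigh most. Relative to the summed macrophage markers, *Ctsl* stood at 74.5% and 96.0% in WT-labelled libraries and at 35.4% and 30.3% in CD4/ALK4-KO-labelled libraries. The alveolar macrophage markers summed to 791 and 941 CPM against 569 and 465 CPM, of which *Chil3* made up 538 CPM in WT replicate 1. Of these markers, 3 of 9 were called lower (log2 fold change -1.34 for *Ear1*, -1.13 for *Fabp4* and -0.83 for *Chil3*) and 1 higher (1.07 for *Siglecf*). *Ctsl* went from 292% and 271% of their sum to 171% and 192%. Beside the fibroblast markers it went from 34.3% and 34.7% to 20.3% and 22.4%. The lung epithelium markers summed to 915 and 900 CPM against 589 and 447 CPM (5 of 10 called lower, 2 higher), and *Ctsl* went from 252% and 283% of them to 165% and 200%. In each of the 4 ratios both CD4/ALK4-KO libraries were below both WT libraries. With 2 libraries against 2, the smallest two-sided p of an exact permutation test is 0.33, and no test was run on these ratios. How much of the *Ctsl* counts came from each cell type was not tested.

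*Ctsb* encodes cathepsin B, an abundant lysosomal protease that also removes dipeptides from the carboxyl end (chromosome 14, 63122462 to 63145923, plus strand). It had 39818 and 40015 counts in WT-labelled libraries and 26998 and 29994 in CD4/ALK4-KO-labelled libraries. Although the pairs did not overlap, the difference missed the threshold (log2 fold change -0.32, standard error 0.19, adjusted p = 0.20). Without CD4/ALK4-KO replicate 2 it passed, at -0.38 (adjusted p = 0.037). *Ctss* encodes cathepsin S, which removes the last part of the invariant chain in B cells and dendritic cells and stays active at neutral pH (chromosome 3, 95526786 to 95556403, plus strand). It had 1687 and 1753 CPM (WT) and 1820 and 1582 CPM (CD4/ALK4-KO), with overlap (log2 fold change -0.016, standard error 0.20, adjusted p = 0.96). Relative to the macrophage markers it likewise overlapped, at 54.5% and 66.1% against 66.3% and 53.7%. *Ctsk*, the gene of the collagen-degrading osteoclast protease cathepsin K, lies on the same strand 17.4 kb from *Ctss* (95499256 to 95509362). It had 471 and 1037 counts in WT-labelled libraries, a wider gap than between the 750 and 638 of CD4/ALK4-KO-labelled libraries. Its log2 fold change, 0.047 with a standard error of 0.30 (adjusted p = 0.93), turned to -0.43 without WT replicate 1 and to 0.73 without WT replicate 2, neither of which passed (adjusted p = 0.47 and 0.16).

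None of the exopeptidases passed the test. *Ctsc* encodes dipeptidyl peptidase I, which activates granzymes and the serine proteases of neutrophils (chromosome 7, 88278085 to 88310888, plus strand). It had 787 and 885 CPM in WT-labelled libraries and 1039 and 892 CPM in CD4/ALK4-KO-labelled libraries, with a small gap between the pairs (log2 fold change 0.21, standard error 0.21, adjusted p = 0.48). *Ctsh* encodes an aminopeptidase that takes part in surfactant protein processing in the lung (chromosome 9, 90054152 to 90076089, plus strand). Its replicates were the most alike of the family, at 180 and 177 CPM and at 216 and 220 CPM, and the difference did not pass the test (log2 fold change 0.29, standard error 0.21, adjusted p = 0.32). *Ctsz*, the gene of the carboxypeptidase cathepsin X (chromosome 2, 174427493 to 174439039, minus strand), had 308 and 257 CPM against 222 and 318 CPM. These libraries overlapped, and the log2 fold change of -0.065 had a standard error of 0.23 (adjusted p = 0.86).

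The aspartic members did not pass either. *Ctsd* encodes the main aspartic protease of lysosomes (chromosome 7, 142375911 to 142388038, minus strand). It had 15880 and 12252 counts in WT-labelled libraries and 11328 and 14470 in CD4/ALK4-KO-labelled libraries, so that each pair spanned much of the other (log2 fold change 0.041, standard error 0.21, adjusted p = 0.91). *Ctse* encodes an endosomal aspartic protease of immune cells and gastric epithelium (chromosome 1, 131638306 to 131675505, plus strand). It had 252 and 316 counts against 356 and 273. The labels overlapped (log2 fold change 0.32, standard error 0.26, adjusted p = 0.38). Like *Ctsw* and *Ctsl*, other members overlap annotated genes: *Ctsb* (*Fdft1*), *Ctsc* (*Gm26522*), *Ctsd* (*Gm49369*), *Ctss* (*Hmgb1-ps5*) and *Ctsz* (*Nelfcd*). Reads in these overlaps could belong to either gene.

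Promoter sequence was looked at for the members with a RefSeq window of 300 bases, 250 before the transcription start and 50 after it (GRCm38.p6), which existed for 6 of the 10: *Ctsc*, *Ctsd*, *Ctsk*, *Ctsl*, *Ctss* and *Ctsz*. Many lysosomal genes carry an element bound by TFEB whose core is CACGTG, and myeloid genes often carry the PU.1 core GAGGAA. Both were searched on both strands, together with the interferon response core GAAANNGAA. CACGTG reads the same on both strands, and no match overlapped another. The stretches printed hold the CACGTG matches of *Ctsl*, which fell, and of *Ctsd*, which did not pass the test, and the GAAANNGAA match of *Ctss*, with the matched letters in capitals and each read 5′ to 3′ along its gene.
*Ctsl*, chr13:64370739-64370768 (minus strand, 15 of its 30 bases in an annotated untranslated exon): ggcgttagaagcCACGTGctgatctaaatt
*Ctsd*, chr7:142388055-142388077 (minus strand): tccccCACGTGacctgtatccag
*Ctsd*, chr7:142387908-142387937 (minus strand, all 30 bases in an annotated untranslated exon): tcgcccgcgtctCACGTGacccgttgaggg
*Ctss*, chr3:95526725-95526785 (plus strand): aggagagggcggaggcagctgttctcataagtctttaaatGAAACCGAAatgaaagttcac
CACGTG was found in 2 of the 6 windows, *Ctsl* and *Ctsd*, and in 7.15% of all 32851 windows. It lay 236 bases before the start of *Ctsl* and 245 and 98 bases before that of *Ctsd*, counted from the RefSeq start of each window. The GENCODE coordinates given above for these 2 genes begin further upstream. By them, all 30 bases of the *Ctsl* stretch and of the second *Ctsd* stretch lie inside the gene, and the first *Ctsd* stretch lies outside it. GAGGAA was found in 3 of 6, *Ctsc*, *Ctsk* and *Ctss*, and in 28.3% of all windows. GAAANNGAA was found in 1 of 6, *Ctss*, 21 bases before its start, and in 8.56% of all windows. *Ctsl*, which fell, and *Ctsd*, which did not pass the test, thus shared the same core. These matches describe letters only, and binding was not measured.

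Compared per kb of exon, *Ctss* had the highest level of the family under both labels and *Ctse* the lowest. In WT-labelled libraries the mean CPM per kb was 1266 for *Ctss*, 485 for *Ctsb*, 439 for *Ctsd*, 374 for *Ctsl*, 196 for *Ctsz*, 144 for *Ctsc*, 39.7 for *Ctsh*, 36.7 for *Ctsk*, 10.1 for *Ctsw* and 6.59 for *Ctse*. Of the neighbours in this order, *Ctsb* and *Ctsd*, *Ctsd* and *Ctsl*, and *Ctsh* and *Ctsk* overlapped between their libraries. In CD4/ALK4-KO-labelled libraries, *Ctsl* (144 CPM per kb) stood below *Ctsz* (187) and *Ctsc* (166), and *Ctsw* (48.9) stood level with *Ctsh* (48.5) and above *Ctsk* (37.9). There the overlapping neighbours were *Ctsz* and *Ctsc*, and *Ctsw* and *Ctsh*. The place of *Ctsl* depends on the length used, since its annotated exons add up to 6489 bp and its principal transcript to 1971 bp. Per kb of principal transcript it stood second in WT-labelled libraries, at 1231 CPM against 1269 CPM for *Ctss*, with overlap, and below *Ctsd* (499) and *Ctsb* (495) in CD4/ALK4-KO-labelled libraries, at 473 CPM, where the 3 overlapped from one to the next. On that length *Ctsw* (74.4 CPM per kb) was below *Ctsh* (135) without overlap in CD4/ALK4-KO-labelled libraries and still above *Ctsk* (37.9).

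The make-up of the family within a library does not depend on how the libraries are scaled. *Ctsl* took 11.9% and 13.1% of the summed cathepsin counts per kb in WT-labelled libraries and 5.45% and 5.05% in CD4/ALK4-KO-labelled libraries, a difference of -7.23 percentage points. By principal transcript, its share went from 27.5% and 29.7% to 13.7% and 12.8%. *Ctsw* took 0.344% and 0.331% against 1.57% and 2.01%. Per kb of exon, *Ctss* held the largest share in each library, from 41.4% to 48.8%, and its pairs overlapped. By principal transcript they did not, at 29.2% and 29.7% against 37.4% and 33.1%, nor did they by counts without division by length, at 17.9% and 18.3% against 23.8% and 20.6%. The pairs of *Ctsb* did not overlap per kb of exon, with a mean of 16.2% against 13.7% and 14.8%, but overlapped by principal transcript, at 14.4% and 14.3% against 13.3% and 14.5%, and by counts. Whether these pairs overlap thus depends on the length used. The ratio of *Ctsw* to *Ctsl* per kb was 0.0290 and 0.0253 in WT-labelled libraries and 0.288 and 0.399 in CD4/ALK4-KO-labelled libraries, 12.6 times as high on average. *Ctsl* over *Ctsb*, both broadly expressed, was 0.740 and 0.803 against 0.399 and 0.342. *Ctsl* over *Ctss* was 0.286 and 0.304 against 0.112 and 0.118. In each of these 3 ratios the pairs were far apart, and none was tested.

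**Figure D3:**
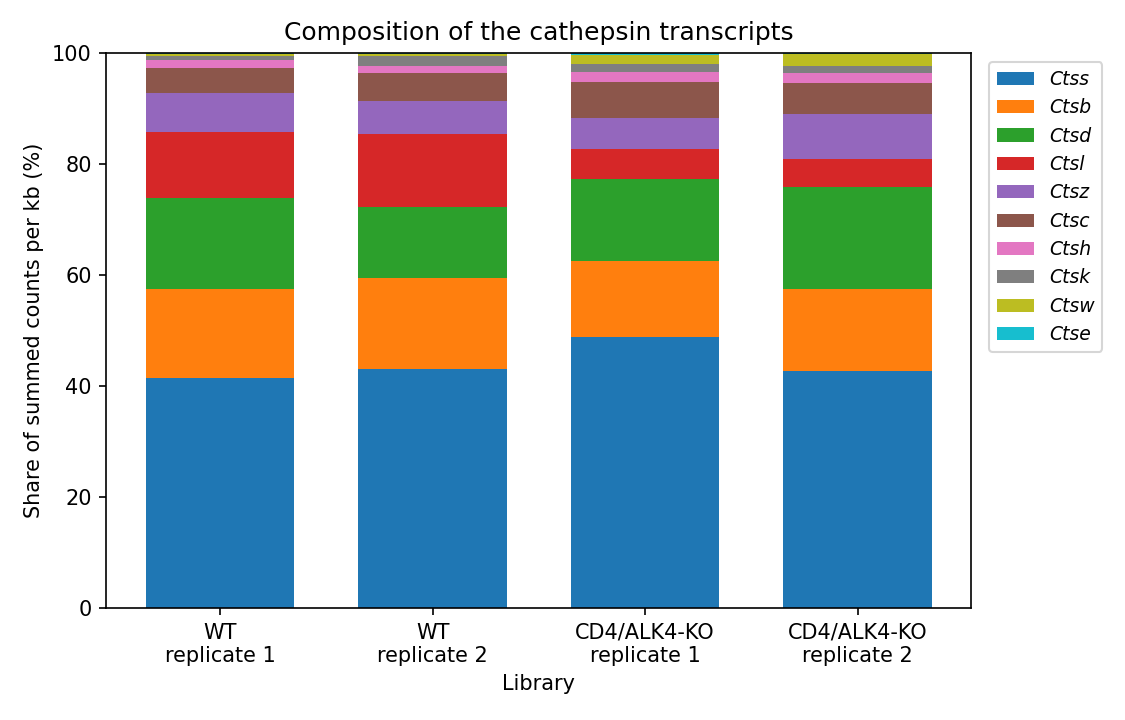
Share of each cathepsin in the summed cathepsin counts per kb of exon, in percent, as stacked bars for the 4 libraries. The *Ctsl* band narrows from 11.9% and 13.1% (labelled WT) to 5.45% and 5.05% (labelled CD4/ALK4-KO), the *Ctsw* band near the top widens, and *Ctss* remains the widest band in each library.

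Of 13 further cathepsin genes, 4 passed the filter on low counts, and 1 of them changed. *Ctsf*, a cysteine protease gene, fell from 120 and 121 counts to 59 and 33 (log2 fold change -1.21, standard error 0.37, adjusted p = 0.015). Its call was lost without WT replicate 1 and without WT replicate 2 (adjusted p = 0.11 in each) and without CD4/ALK4-KO replicate 2 (adjusted p = 0.070). The serine carboxypeptidase *Ctsa* had 3269 and 2763 counts against 3276 and 4334 (log2 fold change 0.50, standard error 0.22, adjusted p = 0.090), and it passed without CD4/ALK4-KO replicate 1 (0.70, adjusted p = 0.0011). *Ctso* stood at -0.080 (adjusted p = 0.81), and the neutrophil serine protease gene *Ctsg*, with 55 and 23 counts against 43 and 14, at -0.27 (adjusted p = 0.75). The other 9 are placental cathepsins or their relatives; 8 were at 0 in each library and *Ctsm* had 2 counts in a single library.

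Inhibitors of cysteine cathepsins were called in both directions, and their counts were not tested against the background. Of 13 listed, 11 were counted under their symbols, 9 were tested, 3 were called higher and 2 lower, beside 17.4% and 15.4% of all genes, with a median log2 fold change of 0.12. *Cst7*, encoding cystatin F, an inhibitor of cathepsin C in the granules of cytotoxic cells, rose from 156 and 156 counts to 495 and 502 (log2 fold change 1.84, standard error 0.25, adjusted p = 7.8e-06). Its replicates were close and its pairs far apart. *Serpina3g*, a serpin of lymphocytes that inhibits cysteine cathepsins, rose from 1015 and 950 counts to 2083 and 2069 (1.25, standard error 0.21, adjusted p = 9.2e-05), though it has near-identical neighbours with which reads can be shared. *Ctla2a*, which resembles the propeptide of cathepsin L and was described in activated T cells, rose from 638 and 424 counts to 704 and 857 (0.72, standard error 0.23, adjusted p = 0.020), and its call was lost without WT replicate 2 (0.46, adjusted p = 0.42). On the T cell receptor scale these 3 had negative log2 fold changes of -0.51 (*Cst7*), -1.10 (*Serpina3g*) and -1.61 (*Ctla2a*).

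Of the inhibitors, *Cstb* and *Cst6* fell. *Cstb*, encoding the widely expressed cytosolic stefin B, fell from 5013 and 4972 counts to 1834 and 2579 (log2 fold change -1.01, standard error 0.23, adjusted p = 0.0015). *Cst6*, encoding the epithelial cystatin E/M, fell from 50 and 44 counts to 1 and 13 (-2.57, standard error 0.69, adjusted p = 0.0062), a call lost without WT replicate 1 (-2.49, adjusted p = 0.085). *Cst3*, the gene of secreted cystatin C, had 14548 and 14358 counts against 9759 and 8840 and did not pass (-0.47, standard error 0.20, adjusted p = 0.084), except without CD4/ALK4-KO replicate 1 (-0.54, adjusted p = 0.0063). *Ctla2b*, near-identical to *Ctla2a*, stood at 0.12 (adjusted p = 0.79), and the stefin A genes *Stfa2l1* and *Stfa1*, whose copies are also alike, at -0.52 and 0.26 (adjusted p = 0.26 and 0.80).

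**Figure D4:**
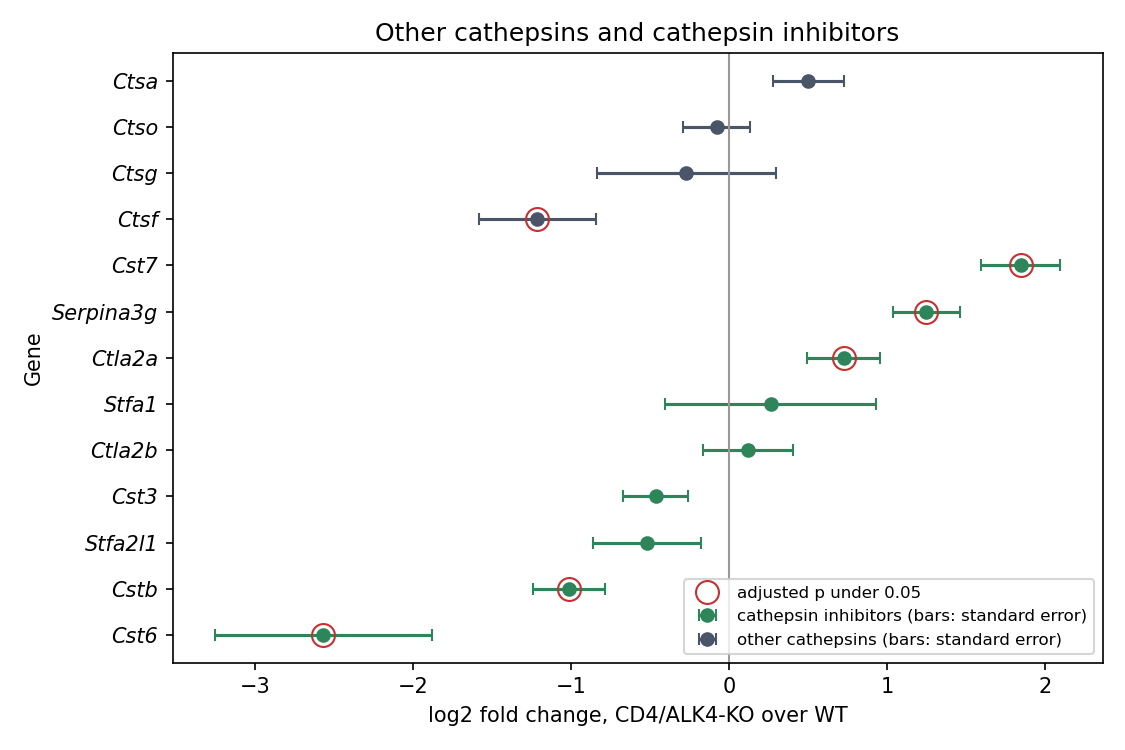
Log2 fold change of the other cathepsins (dark grey) and the cathepsin inhibitors (green) that passed the filter, CD4/ALK4-KO-labelled over WT-labelled libraries, with bars of 1 standard error and red rings at an adjusted p under 0.05. *Cst7* (1.84), *Serpina3g* (1.25) and *Ctla2a* (0.72) carry rings on the right, and *Ctsf* (-1.21), *Cstb* (-1.01) and *Cst6* (-2.57) on the left.

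The genes that sort and process cathepsins and the rest of the lysosome were mostly not called. Of 8 sorting and processing genes, 2 were higher and none lower (median log2 fold change 0.21). *Psap*, encoding the saposin precursor, stood at 0.48 (adjusted p = 0.075) and *Lgmn*, encoding the asparaginyl endopeptidase that cleaves cathepsin precursors, at -0.21 (adjusted p = 0.48). Those called, named here after their values were seen, were *Gnptab* (0.64, adjusted p = 0.021), which makes the mannose 6-phosphate tag, and the sorting receptor *Sort1* (0.73, adjusted p = 0.036). Of 18 membrane and acidification genes, 2 were higher and 1 lower (median 0.0011). *Lamp2*, a lysosomal membrane protein gene, stood at -0.45 (adjusted p = 0.12) and the cholesterol carrier *Npc2* at -0.074 (adjusted p = 0.82). The tetraspanin gene *Cd63* fell (-1.58, adjusted p = 8.1e-06), and *Laptm5* (1.37, adjusted p = 0.00016), a lysosomal protein gene of leukocytes, and the cholesterol transporter *Npc1* (0.74, adjusted p = 0.0099) rose, all 3 likewise named after the fact. On the T cell receptor scale these last were at -0.97 (*Laptm5*) and -1.61 (*Npc1*), with *Gnptab* at -1.71 and *Sort1* at -1.62. Of 26 other lysosomal hydrolases, 4 were higher and none lower (median 0.081). The acid ceramidase *Asah1* stood at -0.55 (adjusted p = 0.056) and the thioesterase *Ppt1* at 0.11 (adjusted p = 0.74), and the 4 called, named after their values were seen, were *Man2b1*, *Acp5*, *Ids* and *Idua*. Against the 17.4% and 15.4% of all genes called, 8 of these 52 genes were called higher and 1 lower. With either WT library left out, *Gnptab*, *Sort1*, *Npc1*, *Man2b1*, *Ids* and *Idua* lost their calls, with adjusted p from 0.058 to 0.33.

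Beside *Ctss* and *Ctsc*, lists next to them in function were counted. Of 11 genes of MHC class II and its processing, 10 were called higher and 0 lower (median log2 fold change 1.03). Over all genes tested, 17.4% were called higher and 15.4% lower. Among the 10 were the class II chain *H2-Aa* (0.57, adjusted p = 0.036) and the invariant chain gene *Cd74* (1.03, adjusted p = 0.0016). *Cd74* had 785 and 557 CPM in WT-labelled libraries and 1117 and 1617 CPM in CD4/ALK4-KO-labelled libraries, while *Ctss*, which cleaves its product, overlapped. The *Cd74* call was lost without WT replicate 2 (adjusted p = 0.11), and that of *H2-Aa* without WT replicate 1 (0.18) or WT replicate 2 (0.47). On the T cell receptor scale *Cd74* was at -1.31 and *H2-Aa* at -1.77. The one gene of the list not called was *Ifi30*, the lysosomal thiol reductase gene (-0.030, adjusted p = 0.93). Of 13 granule genes, 6 were called higher and none lower (median 0.95), beside the same 17.4% and 15.4% of all genes. The granule list comprised serine proteases, perforin (*Prf1*), a mast cell carboxypeptidase (*Cpa3*) and the carrier proteoglycan gene *Srgn*. *Gzma*, encoding granzyme A, which cathepsin C activates, rose from 521 and 932 counts to 1482 and 1987 (1.42, adjusted p = 0.00021), whereas *Srgn* stood at 0.21 (adjusted p = 0.47). Among markers of cells that carry these genes, the dendritic cell markers summed to 141 and 157 CPM against 303 and 290 CPM. Of these, 6 of 10 were called higher and 1 lower, *Clec9a* (-0.73, adjusted p = 0.030). The B cell and cytotoxic markers given above were also higher, but the cytotoxic list shares *Gzma*, *Gzmb* and *Prf1* with the granule list. The neutrophil markers, which share *Elane* with the granule list, overlapped in their sums, at 969 and 1475 CPM against 1581 and 979 CPM. *S100a8* and *S100a9* weigh most in these sums. Of the 11 neutrophil markers, 3 were called higher and 0 lower. The 3 were *Csf3r* (1.05, adjusted p = 0.00087), *Ltf* (0.96, adjusted p = 0.023) and *Cxcr2* (0.76, adjusted p = 0.043). The part of these cells in the class II and granule genes was not tested.

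**Figure D5:**
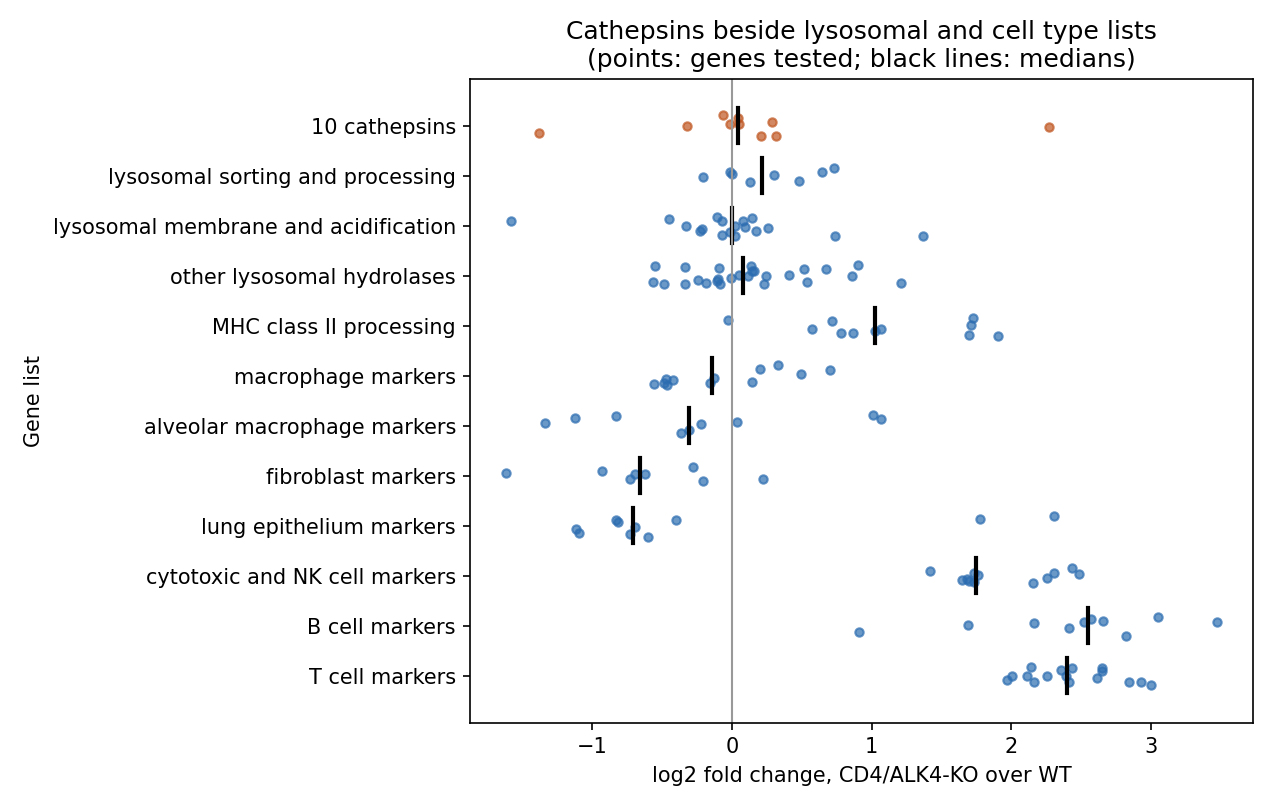
Log2 fold change of every tested gene (points) in the cathepsin family, the lysosomal and partner lists and the main marker lists, CD4/ALK4-KO-labelled over WT-labelled libraries, with a black line at the median of each list. The cathepsins have *Ctsl* and *Ctsw* at the ends, and their line is the median of all 10 (without *Ctsw* the median is 0.041). The 3 lysosomal lists centre between 0.0011 and 0.21, and the T cell, B cell and cytotoxic markers between 1.75 and 2.55.

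*Ctsk* is best known from osteoclasts, and 4 of 6 osteoclast markers passed the filter. The sum of all 6 was 68.4 and 59.4 CPM against 123 and 135 CPM. Of the 4 tested, 1 was called higher, *Acp5* (1.21, adjusted p = 0.00016), a gene that other macrophages also express. *Ctsk* amounted to 0.511% and 1.05% of the summed fibroblast markers in WT-labelled libraries and to 1.32% and 1.30% in CD4/ALK4-KO-labelled libraries. *Ctsk* itself overlapped between the labels.

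Genes with the pattern most like that of *Ctsw* and of *Ctsb* were searched among the 10459 tested genes that averaged 100 counts or more, by the root mean square distance of log2 CPM centred on each gene's mean over the 4 libraries. Nearest to *Ctsw* were *Atp2a3* (0.0354), a calcium pump gene of haematopoietic cells, and *Parvg* (0.040), an actin-binding parvin gene of leukocytes. *Atp2a3*, for example, had 20.8 and 20.1 CPM in WT-labelled libraries and 92.0 and 115 CPM in CD4/ALK4-KO-labelled libraries. Nearest to *Ctsb* were *Tmed9* (0.0135), a cargo receptor gene of the early secretory pathway, *Zfp870* (0.0156) and *Igbp1* (0.0158). With 4 libraries, such closeness describes the levels and nothing else.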

How the data were processed

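The 4 RNA-Seq libraries, of tumor-derived CD4+ T cells, were grouped by their sample titles into 2 WT and 2 CD4/ALK4-KO libraries. Libraries were made with the TruSeq RNA v2 kit, which does not keep strand, and sequenced as 75 bp single-end reads. Per the submitters' processing notes and the methods, the authors used FastQC, aligned reads to mm10 with HISAT2 and counted them with HTSeq; the deposited values are unnormalized read counts for each gene symbol. Annotation, strand option and tool versions are not given in the sources used here. The cathepsins and gene lists were chosen with earlier results of these data known.

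The counts were filtered with filterByExpr, normalized by TMM and tested with edgeR 4.0.16 (robust quasi-likelihood, two-sided, genotype as the only term) in R 4.3.3, with Benjamini-Hochberg adjustment over 13919 genes and a threshold of 0.05. The common dispersion was 0.0357. The procedure was tested on simulated data. Standard errors were derived as |log2 fold change| over the root of the F statistic. Replicates differed beyond sampling noise (chi-square per degree of freedom 16.05 between WT replicates, 28.7 between CD4/ALK4-KO replicates), so none were merged. Locations and lengths are from GENCODE M21 (GRCm38) and promoter windows from RefSeq (GRCm38.p6). Named genes were the 10 cathepsins, every other cathepsin and inhibitor tested, and, of each lysosomal or partner list, the 2 genes of highest mean CPM. Marker lists are mostly given by their sums, and not all of their 2 genes of highest mean CPM are named. Outside this rule, *Csf1r*, *Ear1*, *Fabp4*, *Siglecf*, *Clec9a*, *Csf3r*, *Ltf*, *Cxcr2* and *Ifi30* were named by whether they passed the test. The same holds for the lysosomal genes stated as named after their values were seen. Of the genes most alike in pattern to *Ctsw* and *Ctsb*, 3 each were sought, and 1 result is not reported here. The alternatives were DESeq2 1.42.0 (size factors, or its Wald test), upper quartile scaling, scaling to T cell receptor complex genes or to macrophage markers, no filter or a minimum of 10 counts in all libraries, a block for the replicate number, removal of each library, and, for shares, other lengths. The crossed pairing and the principal transcript length were added after seeing the data. Protein sequences were not used here.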

Additional observations from a re-analysis of the deposited data

How the results depend on the processing

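*Ctsl* kept its direction and its call under all 13 alternatives, and *Ctsw* under 12. Scaling to T cell receptor complex genes moved every member: *Ctsw* to -0.073, *Ctsb* to -2.67, *Ctsc* to -2.15, *Ctsd* to -2.30, *Ctse* to -2.05, *Ctsh* to -2.06, *Ctsk* to -2.335, *Ctss* to -2.37 and *Ctsz* to -2.40 on the log2 scale, with a median of -2.335 for the 9 members other than *Ctsw*, and called 0 members higher and 9 lower and 34 genes higher and 13010 lower of all tested; by its construction it subtracts the rise of those 4 genes. Upper quartile scaling, which shifted all genes by -0.068, turned *Ctsd* to -0.027, *Ctsk* to -0.015 and the median of the 9 to -0.027, and scaling to macrophage markers turned *Ctss* to 0.039; none of these values passed the test. Leaving out each library in turn gave 1 to 2 members lower, 1103 to 2923 genes higher and 754 to 2618 lower, with the smallest numbers without WT replicate 1 (1103 and 754) and then without WT replicate 2 (1344 and 1047), and gave *Ctsd* -0.13 to 0.22, *Ctsk* -0.43 to 0.73, *Ctss* -0.090 to 0.076 and *Ctsz* -0.35 to 0.20. Where 1 library of a genotype remained, it was assumed to vary like the others.

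With the replicate number as a block, 1768 genes were higher and 1444 lower, the same members were called, and *Ctsw* stood at 2.26 and *Ctsl* at -1.38. Same-numbered libraries tended to deviate in opposite directions (correlation over genes -0.24). With 2 libraries per genotype, this value cannot decide whether the libraries were paired. The crossed pairing, added after seeing the data, gave 3118 higher and 3037 lower. Without division by length, the differences in share were -0.239 percentage points for *Ctsb*, 3.79 for *Ctsc*, 0.962 for *Ctsh*, -13.4 for *Ctsl* and 1.00 for *Ctsw*; per principal transcript they were -0.420, 3.10, 1.23, -15.3 and 1.74.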
